A study of Mus musculus with 2 samples.

Results

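Choroidal endothelial cells line the blood vessels behind the retinal pigment epithelium (RPE), and here they were chosen by UMIs, counts in which each captured RNA molecule is scored once by its molecular tag. A cell was taken when Pecam1, Cdh5, Egfl7, Flt1, Plvap and Cldn5 together had at least 10 UMIs with 3 or more of the 6 genes detected. It also had to have under 10 UMIs of Rpe65, the visual cycle isomerase of the RPE, and under 2000 CPM of Dcn, the fibroblast proteoglycan decorin. Acta2, Tagln and Myh11, genes of the smooth muscle contractile apparatus, had to stay under 10000 CPM together, where CPM is the number of UMIs per 1000000 UMIs. The rule took 400 of 35627 kept cells, namely 271 of 20189 in control and 129 of 15438 in Dox.

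The choroid is the vascular layer that supplies the outer retina, and its innermost bed, the choriocapillaris, is a sheet of wide capillaries whose endothelium is pierced by fenestrae. Plvap builds the diaphragms that span these pores. Vascular endothelial growth factor from the RPE acts on Kdr and Flt1, the VEGF receptors of the endothelium, and maintains this bed. The arteries that feed it and the veins that drain it carry genes of their own, such as the gap junction gene Gja4 in arteries and the adhesion receptor gene Selp in veins.

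The study asked how the RPE layer responds to a low dose of doxorubicin (Dox), a drug that damages DNA. C57BL/6J mice 3 months of age received 1 µl of PBS (control) or 1 µl of Dox at 100 ng/µl under the retina, and tissue was taken 7 days later. After the retina was removed, the RPE, choroid and sclera of 10 eyes from 5 mice were dissociated together with papain for each condition. Each condition was therefore a single pooled library without a replicate, and both conditions carried an injection. Endothelium of vessels other than the choroid that stayed on the tissue cannot be told apart by this rule.

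The kept cells had over 500 UMIs, 200 to 6000 genes and a mitochondrial share under 0.2. Endothelial cells had a median of 3835 UMIs in control (732 to 25636) and 4299 in Dox (1040 to 19090), against 4504 and 5003 in the other cells, and their UMIs summed to 1190731 and 651864. Of 428 barcodes that both libraries shared among kept cells, 0 belonged to endothelial cells in both. No doublet caller was run, so that only the gene limit and the limits on Rpe65, Dcn and smooth muscle genes removed mixed droplets.

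Around the threshold, 33 control and 12 Dox cells had 10 to 14 UMIs of the 6 genes, and 33 control and 17 Dox cells that met the other limits had 5 to 9 and stayed outside. The limits on other cell types removed 57 control cells for Dcn, 9 for Rpe65 and 3 for smooth muscle genes, and in Dox they removed 14, 3 and 1. Within the chosen cells the 6 genes had a median of 35 UMIs in control (10 to 150) and 40 in Dox (10 to 200). All 6 genes were detected in 75 control and 43 Dox cells.

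The label was checked against 15 endothelial genes that the rule did not use, among them Kdr, Tek, Tie1, Esam, Emcn, Eng, Ptprb, Robo4, Mmrn2 and Lrg1. Control endothelial cells had a median of 11 of these 15 genes (4 to 15) and Dox endothelial cells a median of 12 (3 to 15). Cells with 10 to 14 UMIs of the 6 rule genes had 9 in control and 8 in Dox, and the cells with 5 to 9 UMIs that stayed outside still had 6 and 7. By comparison, Dcn-high cells had a median of 2 in both libraries, and Rpe65-high and Ptprc-positive cells had a median of 0. Together the 15 genes reached 9902 CPM (control) and 10677 CPM (Dox) endothelial cells, against at most 901 CPM in any other class. The markers thus went with the label, and the cells just outside the threshold carried them too.

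**Figure D1:**
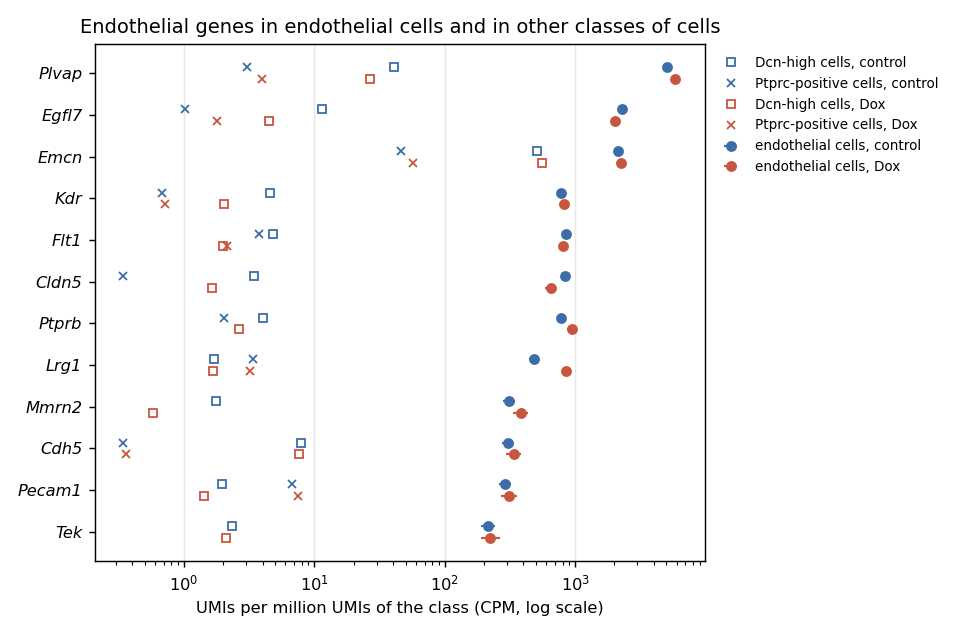
Level of 12 endothelial genes (CPM, log scale) in endothelial cells (filled points, with exact Poisson intervals at 95%), Dcn-high cells (squares) and Ptprc-positive cells (crosses) of the control (blue) and Dox (red) libraries. In the endothelial cells Plvap stood at 5059 and 5859 CPM, and Kdr at 775 and 821 CPM, and crosses with 0 UMIs (Tek and Mmrn2 in both libraries, Cldn5 and Ptprb in Dox) are not drawn.

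The marker genes named for these cells lie, in mm10 with GENCODE vM21 gene bounds, at chr16:18776847-18778262 (Cldn5, plus strand), chr14:34375465-34404287 (Mmrn2, plus), chr2:26580014-26593120 (Egfl7, plus), chr8:71497765-71511752 (Plvap, minus) and chr17:56119678-56122001 (Lrg1, minus). Cldn5, Egfl7 and Plvap are genes of the rule, which fixed that they be frequent in the chosen cells and rare elsewhere, while Mmrn2 and Lrg1 were not used by it. Plvap was detected in 89.3% of control endothelial cells (85.0 to 92.7, exact Clopper-Pearson interval) and 93.0% of Dox ones (87.2 to 96.8). In Dcn-high cells, which had a greater median depth of 4865 and 5430 UMIs, the shares were 7.99% and 9.20%. Cldn5, the claudin of endothelial tight junctions, was in 80.4% of control and 73.6% of Dox endothelial cells, against 0.713% and 0.569% of Dcn-high cells. Mmrn2, a matrix protein that binds endothelium, was in 63.8% and 81.4% against 0.576% and 0.256%. Lrg1, a secreted glycoprotein that promotes vessel growth, was in only 32.1% and 46.5%, so that it marked a subset, against 0.413% and 0.476% of Dcn-high cells. The part of free RNA, of mixed droplets or of endothelial cells over the Dcn limit in these shares of Dcn-high cells was not tested.

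Of 3143 genes with at least 50 CPM and 50 UMIs in the endothelial cells, 323 (10.3%) were at least 4-fold above all other cells, and all 21 genes of the endothelial identity list were among them, with a median of 168-fold. These values follow from how the cells were chosen and are a description. The highest ratio was that of Gpihbp1, which carries lipoprotein lipase to the capillary surface, at 1768-fold, although it was detected in 8.86% and 11.6% of the cells. It was followed by Robo4 (409-fold), a receptor that stabilises vessels, Sema3g (391-fold), a semaphorin of arterial endothelium, Cldn5 (375-fold), Lrg1 (373-fold), Ces2e, Myct1, Srarp, the Notch ligand gene Dll4 (335-fold), Fam167b and AU021092. The next were Mall, the transcription factor gene Sox18 (320-fold), Gkn3, Mmrn2, the hedgehog ligand gene Ihh (294-fold), Egfl7 (291-fold), which encodes a secreted factor of endothelium, Grrp1, Kdr (273-fold) and Ptprr. Ihh was in 18.5% of control and 24.0% of Dox endothelial cells.

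The promoters of these leading genes were read from RefSeq windows of GRCm38.p6 that run from 250 bases before to 50 bases after the start. A window was found for 16 of the 20 genes, and for 27025 genes in all, with the first window taken where a gene had several. The letters GGAAGT, the core that ETS factors of endothelium bind, were present on either strand in 6 of the 16 windows (37.5%), those of Egfl7, Fam167b, Kdr, Lrg1, Myct1 and Ptprr, against 24.1% of all windows. The letters AACAGGAA, a composite of a forkhead and an ETS site, were in 1 window, that of Egfl7, against 2.58% of all, and ACAATG, a SOX core, was in 0 of 16, against 12.8% of all. The 3 windows below belong to Egfl7 (chr2:26580833-26581132, plus strand), which held both motifs, to Lrg1 (chr17:56121897-56122196, minus strand), which differed most between the libraries among the identity genes, and to Cldn5 (chr16:18776597-18776896, plus strand), which held neither. Capitals mark GGAAGT and AACAGGAA or their reverse complements, and a match describes letters, not binding.
Egfl7: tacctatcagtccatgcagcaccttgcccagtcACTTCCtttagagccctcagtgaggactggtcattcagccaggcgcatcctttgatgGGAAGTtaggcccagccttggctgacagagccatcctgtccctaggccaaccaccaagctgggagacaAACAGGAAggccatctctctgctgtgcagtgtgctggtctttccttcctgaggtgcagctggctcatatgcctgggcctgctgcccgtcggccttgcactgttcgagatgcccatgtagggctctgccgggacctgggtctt
Lrg1: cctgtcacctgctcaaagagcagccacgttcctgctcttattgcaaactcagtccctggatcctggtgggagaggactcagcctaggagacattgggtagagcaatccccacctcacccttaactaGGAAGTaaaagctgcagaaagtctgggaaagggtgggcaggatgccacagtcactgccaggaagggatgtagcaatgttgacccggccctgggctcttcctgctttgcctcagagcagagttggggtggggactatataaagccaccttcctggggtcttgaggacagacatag
Cldn5: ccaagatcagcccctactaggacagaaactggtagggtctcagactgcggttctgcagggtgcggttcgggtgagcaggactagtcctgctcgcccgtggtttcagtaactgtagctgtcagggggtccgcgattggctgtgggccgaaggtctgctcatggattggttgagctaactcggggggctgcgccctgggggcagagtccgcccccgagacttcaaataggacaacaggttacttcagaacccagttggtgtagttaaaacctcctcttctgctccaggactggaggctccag

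Transcription factors of the endothelial programme were present in the same cells. Sox18 was at 211 CPM (control) and 245 CPM (Dox), and Sox7 at 132 and 118 CPM, both SRY-box factors of vessel development. The ETS factor gene Fli1 was at 181 and 189 CPM, Erg at 68.0 and 64.4 CPM and Ets1 at 136 and 140 CPM. Lmo2, a partner of endothelial and blood transcription factors, was at 338 and 385 CPM. Of 22 such factors, 19 had at least 50 UMIs, and 12 of these were at least 4-fold above all other cells. The share was 10.3% over all 3143 genes that also had at least 50 CPM, and again the choice of cells fixes such values. Nr2f2, the factor that specifies veins, was at 36.1 and 44.5 CPM, below the 105 and 114 CPM of the other cells.

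To describe the vessel types, cells were split by UMIs of venous genes (Vwf, Selp and Ackr1 together) and arterial genes (Gja4, Gja5, Sox17 and Sema3g together), with a cut at 3 UMIs for each. These classes are ranges of counts, not cell types, and 53 control and 26 Dox cells lay 1 UMI from a cut. Ackr1, a chemokine receptor of venules, had 0 UMIs, so that Vwf and Selp set the venous class. In control, 61 cells (22.5%, 17.7 to 28.0) were venous-high, 34 (12.5%, 8.85 to 17.1) arterial-high, 19 (7.01%) both and 157 (57.9%, 51.8 to 63.9) neither. In Dox the numbers were 39 (30.2%, 22.5 to 38.9), 13 (10.1%, 5.48 to 16.6), 6 (4.65%) and 71 (55.0%, 46.0 to 63.8). The intervals of each class overlapped between the libraries.

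Of 13 fenestrated capillary genes with at least 50 UMIs, 10 were highest in the cells with neither gene set, and Tmem100, Sparcl1 and Vwa1 were not. The share of all genes that were highest in this class was not counted, so the 10 of 13 stand without a background. The list includes Plvap, which also helped to choose the cells. Summed over both libraries, Plvap was at 8158 CPM in these cells (7978 to 8341, exact Poisson interval), against 2645 CPM in venous-high and 2278 CPM in arterial-high cells. Kdr was at 1293 CPM against 215 and 349 CPM. Esm1, an endothelial proteoglycan that VEGF induces, was at 258 CPM, 0 CPM (0 UMIs) and 56.1 CPM in the 3 classes. Cd300lg, a receptor of capillary endothelium, was at 217 CPM, 0 CPM and 64.7 CPM, and Car4, a membrane carbonic anhydrase of the choriocapillaris, at 55.4 CPM, 0 CPM and 0 CPM. The leading gene Ihh followed the same order, at 148 CPM against 12.3 and 17.3 CPM, as did Ednrb, an endothelin receptor gene, at 649 CPM against 100.3 and 237 CPM. None of these genes set the classes, although the 3 classes were cut from the same cells and counts.

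Venous-high cells were higher than arterial-high cells in the genes named next, several of them adhesion or inflammatory genes. They are examples, and how many genes of the whole venous list were highest in this class was not counted. Lrg1 was at 1437 CPM in them (1333 to 1548), against 203 CPM in arterial-high cells and 219.6 CPM in cells with neither. Icam1, a receptor for leukocyte integrins, was at 2719 CPM against 531 and 1353 CPM. Sele, which lets leukocytes roll on activated endothelium, was at 575 CPM against 4.31 and 53.3 CPM, and Vcam1, a ligand for lymphocyte and monocyte integrins, at 571 CPM against 186 and 61.7 CPM. Iigp1, an interferon-induced GTPase, was at 319 CPM against 25.9 and 42.9 CPM. Nr2f2 was at 83.9 CPM in venous-high cells against 21.6 CPM in arterial-high cells, and Procr, the endothelial protein C receptor gene, at 207 CPM against 60.4 and 59.6 CPM.

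Arterial-high cells were higher than venous-high cells in a further group of genes. These too are examples, and how many genes of the whole arterial list were highest in this class was not counted. Cldn5 was at 1238 CPM in them (1099 to 1390), against 489 CPM in venous-high cells and 753 CPM in cells with neither. Ly6c1, a surface antigen of mouse endothelium, was at 1273 CPM against 414 and 227 CPM. Gkn3, one of the 20 leading genes, was at 306 CPM against 10.2 and 14.6 CPM, Fbln5, an elastic fibre protein, at 341 CPM against 47.1 and 60.6 CPM, and the Notch ligand gene Jag1 at 147 CPM against 26.6 and 12.5 CPM. Edn1, the precursor of the vessel constrictor endothelin, was at 341 CPM against 180 and 32.4 CPM. Hey1, a target of Notch in arteries, was at 125 CPM against 8.19 and 25.1 CPM. Of 17 genes that were followed, 12 were highest in the same 1 of all 4 classes with cuts at 2, 3 or 5 UMIs and in cells thinned to 2000 UMIs. The exceptions were Igfbp3, the glucose transporter gene Slc2a1, and Vcam1, Cldn5 and Gkn3, which were highest in the cells with both gene sets under some of these settings, as Vcam1 was at the cut of 3 UMIs, at 596 CPM.

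**Figure D2:**
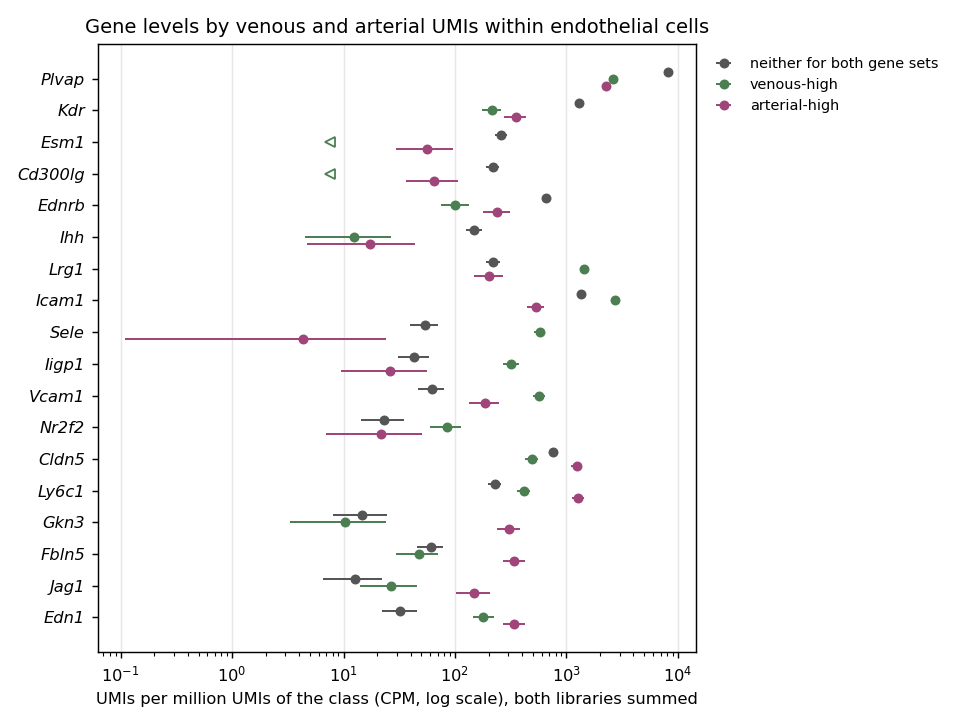
Level of 18 genes (CPM, log scale, both libraries summed, bars are exact Poisson intervals at 95%) in endothelial cells with neither gene set (grey), venous-high cells (green) and arterial-high cells (purple), where triangles mark the upper limit of a level with 0 UMIs. Plvap, Kdr and Esm1 lie furthest right in the grey class, Lrg1, Icam1 and Sele in the green one and Cldn5, Gkn3 and Fbln5 in the purple one.

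Genes of other vascular beds were unequal. Of the 12 genes of the barrier capillary list, 7 had at least 50 UMIs. Of these 7, 4 were at least 4-fold above all other cells, among them the efflux pump genes Abcb1a (51.4-fold) and Abcg2 (10.8-fold). Over all 3143 genes that also had at least 50 CPM the share was 10.3%. Mfsd2a, the lipid transporter of barrier-forming neural capillaries, had 6 control and 2 Dox UMIs, and the barrier transporter gene Slco1c1 had 14 and 11. Prox1, the factor that specifies lymphatic endothelium, had 0 UMIs in control and 14 in 6 Dox cells, of which 8 were in 1 cell. This cell, with 19090 UMIs the deepest endothelial cell of the Dox library, also held all 82 UMIs of Ccl21a, a chemokine of lymphatic endothelium whose 2 annotated copies were summed, 5 UMIs of the VEGF-C receptor gene Flt4 and 4 of Mmrn1, but 0 of Lyve1 and 0 of Pdpn. Mki67, a gene of cycling cells, had 1 UMI in control and 0 in Dox, which does not limit the share of cells that express it.

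The share of endothelial cells was 1.34% of kept cells in control (1.19 to 1.51, exact Clopper-Pearson interval) and 0.836% in Dox (0.698 to 0.992). These intervals, like all others here, cover counting error only, and with 1 library per condition no test between the conditions was made and no p is given. The share depended on how cells with RNA of other types were treated. Without cells with 2 or more UMIs of Ptprc, C1qa, Cd3e and Nkg7 together, or 5 or more of Pmel, Mlana and Dct together, 77 control and 105 Dox cells remained, which is 0.381% and 0.680%, so that the order turned. Melanocyte RNA was the larger in control, where the 7 melanocyte markers summed to 4132 CPM in endothelial cells against 1236 CPM in Dox, and to 4455 and 1848 CPM in all other cells.

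Between Dox and control, 5220 genes with at least 50 UMIs over the endothelial cells of both libraries were compared. Their median log2 ratio of CPM (Dox over control) was -0.01, with 2515 genes higher in Dox and 2705 lower. At least 2-fold apart were 22 genes higher in Dox (0.421%) and 70 genes lower in Dox (1.34%). Among the 323 genes that were at least 4-fold above other cells, 0 were past 2-fold in either direction, with a median of 0.02, 174 higher and 149 lower. These 323 genes also had to reach 50 CPM, a higher floor than the 50 UMIs asked of the 5220, so the counts are not alike. Under that floor, 2 genes higher and 6 lower in Dox were past 2-fold and at least 4-fold above other cells. The 21 genes of the endothelial identity list had a median of 0.06 (13 higher, 8 lower), and those of fenestrae and caveolae, such as the caveolin gene Cav1 (249 CPM (control) and 245 CPM (Dox)), a median of 0.14 (7 higher, 3 lower).

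The identity gene furthest apart was Lrg1, at 482 CPM (443 to 523) in the control library and 857.5 CPM (788 to 932) in the Dox library, a log2 difference of 0.83 (0.66 to 1.002). In all other cells it was near absent at 1.82 and 1.45 CPM, with a log2 ratio of -0.32. The deepest Lrg1 cell held 33 of 574 UMIs in control and 40 of 559 in Dox. Under the alternatives that were run the ratio stayed between 0.74 and 0.96, although some of them could not move it. Within venous-high cells the ratio was 0.35 (0.13 to 0.57), from 1293 to 1648 CPM, and within cells with neither gene set it was 1.46 (1.05 to 1.88), from 135 to 372 CPM. In arterial-high cells it was -3.56 (-6.65 to -1.63), from 296 to 25.05 CPM, on 45 UMIs in 34 control cells and 2 UMIs in 13 Dox cells. In the few cells with both gene sets, 19 in control and 6 in Dox, it was 2.59 (2.14 to 3.04), from 531 to 3189 CPM. The direction in arterial-high cells was thus opposite to that in the other 3 classes, and whether the classes differed was not tested.

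Other adhesion genes of veins differed less. Sele was at 198 CPM (control) and 276 CPM (Dox), a log2 difference of 0.48 (0.19 to 0.76), but at 573 and 579 CPM within venous-high cells, a log2 difference of 0.02 (-0.34 to 0.37). It was -0.28 (-1.23 to 0.61) in cells with neither gene set and 2.58 (1.92 to 3.25) in the 19 control and 6 Dox cells with both, from 254 to 1517 CPM, and 47 of 180 Dox UMIs of Sele were in 1 cell. Selp was at 203 and 267 CPM, 0.39 (0.10 to 0.68), which ran from -0.06, when 4 of the 6 rule genes were required, to 0.78, as the mean of each cell's own CPM. Icam1 was at 1591 and 1709 CPM, 0.10, and Vcam1 at 270 and 242 CPM, -0.16. Of 9 venous genes with enough UMIs, 6 were higher and 3 lower in Dox, with a median of 0.30, and 0 were past 2-fold. For the 13 arterial genes the median was 0.10 (8 higher, 5 lower).

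Among receptors and junction genes, Plvap was at 5059 CPM (control) and 5859 CPM (Dox), a log2 difference of 0.21 (0.15 to 0.27). Plvap, Flt1, Cldn5 and Cdh5 are among the 6 genes that chose the cells, so that their values here are a description. Kdr was at 775 and 821 CPM, 0.08 (-0.07 to 0.24), and Flt1 at 846 and 813 CPM, -0.06 (-0.21 to 0.10). A list of 10 genes held the VEGF receptor and co-receptor genes Flt1, Kdr, Flt4, Nrp1 and Nrp2. Its other members, Ptprb, Cd34, Robo4, Adgrl4 and Plxnd1, are not VEGF receptors. The list had a median of 0.03, with 5 higher and 5 lower, so it does not describe VEGF receptors alone. Cldn5 was lower in Dox, at 841.5 and 647 CPM, -0.38 (-0.55 to -0.21). Its ratio stayed between -0.52 and -0.31 under the alternatives that were run, although some of them could not move it. Jam2, a junctional adhesion molecule, was at 144 and 204 CPM, 0.50 (0.16 to 0.83), and Cdh5, the cadherin of endothelial junctions, at 304 and 339 CPM, 0.16 (-0.09 to 0.40). The 15 junction genes had a median of 0.05 (8 higher, 7 lower).

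The flow-responsive factors Klf2 and Klf4 were higher in Dox. Klf2 was at 3125 and 4280 CPM, a log2 difference of 0.45 (0.38 to 0.52), and Klf4 at 700.4 and 1002 CPM, 0.52 (0.37 to 0.67), against 0.03 and 0.16 in all other cells. Thbd, the thrombomodulin that Klf2 induces, was at 183 and 279 CPM, 0.61 (0.32 to 0.90). Klf2 and Klf4 also respond to tissue dissociation, and 15 of 20 immediate early and dissociation genes were higher in Dox, with a median of 0.12, among them Dusp1 at 0.36 and Jund at 0.35, while Fos was at 0.14 and Egr1 at -0.01. The part of dissociation in these ratios was not tested.

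Vessel tone and basement membrane genes differed in both directions, with 11 of 16 and 7 of 15 higher in Dox, and the members furthest below control are given here with 3 genes of other lists. Ednrb was at 479 and 281 CPM, a log2 difference of -0.77 (-1.02 to -0.53), and it was also lower in all other cells, at -1.69. Adm, the vasodilator adrenomedullin, was at 59.6 and 23.01 CPM, -1.37 (-2.28 to -0.56), from 71 and 15 UMIs, beside -1.13 in all other cells. Sparcl1, a matrix protein, was at 243 and 133 CPM, -0.86 (-1.23 to -0.51), beside -0.71. Col15a1, a basement membrane collagen, was at 97.4 and 46.0 CPM, -1.08 (-1.71 to -0.49), but -0.04 in cells thinned to 2000 UMIs. Slc2a1 was at 533 and 408 CPM, -0.39 (-0.60 to -0.18), where all other cells had 0.47, and Lef1, a factor of Wnt signalling that neural barrier endothelium needs, was at 49.6 and 24.5 CPM, -1.01 (-1.91 to -0.20). Of the 7 barrier capillary genes with enough UMIs, 1 was higher and 6 lower, with a median of -0.19, and Lef1 was the 1 past 2-fold. The make-up of all other cells differed between the libraries. By the classes defined below, they held 2600 control and 781 Dox Pmel-high cells and 762 and 340 smooth muscle gene-high cells. Rpe65-high cells numbered 1530 and 1639. The part of this make-up in the ratios of all other cells was not tested.

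**Figure D3:**
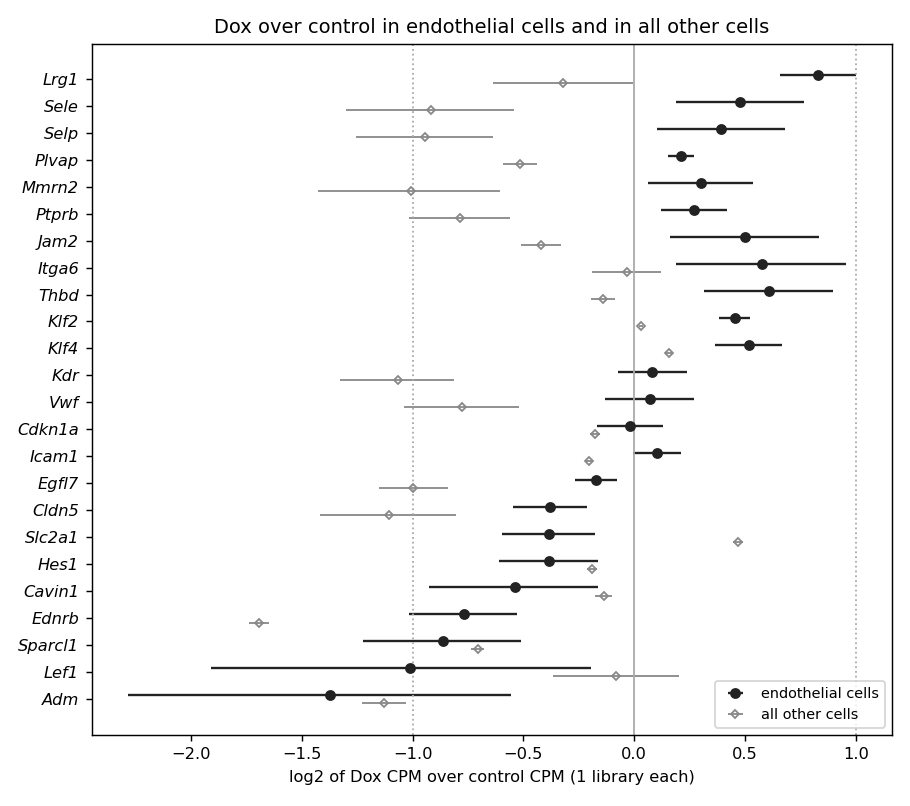
Log2 ratio of Dox CPM over control CPM (1 library each) for 24 genes in endothelial cells (filled points) and in all other cells (open diamonds), with conditional binomial intervals at 95% of counting error, where dotted lines mark 2-fold. Lrg1 lies at 0.83 in endothelial cells and -0.32 in all other cells, Slc2a1 at -0.39 and 0.47, and Ednrb lies left of 0 in both.

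As a list, p53 target genes of the DNA damage response lay near the median of all genes in endothelial cells at 7 days. Of 31 p53 target genes, 14 had enough UMIs, 5 of them higher and 9 lower in Dox. Their median was -0.05, with 0 past 2-fold and 0 with a counting interval that excluded 0. The counting interval of Ccng1 thus included 0, as did that of Bax. Across the settings that were run, Ccng1 lay between 0.67 and 0.87, Bax between -0.49 and -0.10 and Trp53i11 between -0.78 and -0.36. Aen had too few UMIs to be compared. The paper reports Ccng1 as raised in RPE cells after Dox, and Cdkn1a, Bax and Aen as raised in a cluster of these cells. It also states that the injected drug reached only part of the RPE. Where the endothelial cells lay is not known, so a response limited to that part was not tested. Cdkn1a, the cell cycle inhibitor p21, was at 901 and 890 CPM, -0.02 (-0.17 to 0.13), in 83.8% and 85.3% of the cells, and Mdm2, the ubiquitin ligase of p53, at 51.2 and 58.3 CPM, 0.19 (-0.44 to 0.79). Cdkn2a, the senescence gene of p16, had 0 UMIs in both libraries, with exact Poisson upper limits of 3.10 CPM (control) and 5.66 CPM (Dox). Of 13 senescence regulators, 4 were higher and 9 lower, with a median of -0.17, and the survival gene Bcl2 was past 2-fold at -1.03 (-2.14 to -0.04), from 41 and 11 UMIs. The 23 interferon-stimulated genes had a median of -0.05 (10 higher, 13 lower) and the 15 MHC class I genes a median of 0.06 (9 higher, 6 lower), with 0 past 2-fold in both lists. Among the 6 genes of doxorubicin targets and efflux, the median was -0.17, with the efflux pump gene Abcb1a at 146 and 124 CPM and Abcg2 at 337 and 316 CPM.

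The other gene lists had the following medians of the log2 ratio, beside -0.01 for all genes. The 18 genes of the Tie, Notch and BMP pathways had a median of -0.05 (7 higher, 11 lower), for example the Notch target gene Hes1 at 473 and 362 CPM, and the 13 genes of fenestrated capillaries a median of 0.08 (8 higher, 5 lower). The 16 genes of vascular tone and coagulation had a median of 0.26, with 11 higher and 5 lower, 1 of them past 2-fold (Adm), against -0.15 in all other cells. The medians were -0.08 for 15 basement membrane genes, with Col15a1 past 2-fold, -0.02 for 13 genes of leukocyte adhesion, -0.02 for 6 genes of lipid and nutrient uptake and 0.04 for 19 endothelial transcription factors. Of 12 tip cell and proliferation genes only 3 had 50 UMIs, namely Esm1, Apln and Dll4, so that no proliferation gene was compared. Their median was 0.43 against -0.46 in all other cells. There Esm1 (1.24 and 0.90 CPM) and Dll4 (0.86 and 0.22 CPM) were near absent. Of 7 lymphatic genes 3 had 50 UMIs, with a median of 0.28. The 14 heat shock genes had a median of 0.20 (10 higher, 4 lower), the 17 metallothionein and redox genes a median of -0.06 (6 higher, 11 lower), and the 20 acute inflammatory genes a median of 0.07 (14 higher, 6 lower), with Ccl2, A2m and Serpina3n past 2-fold. Fibroblast markers had a median of -0.26 (1 of 9 higher), smooth muscle and pericyte markers -0.59 (1 of 5 higher) and macrophage markers 0.26 (2 of 3 higher). The lymphocyte gene Ccl5 (1.38) was the only one of its list with enough UMIs, and 0 erythroid and 0 rod genes reached 50 UMIs.

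Of the 22 genes at least 2-fold higher in Dox, 2 were at least 4-fold above all other cells, as were 6 of the 70 lower ones, each of them under 50 CPM over both libraries. The 12 genes furthest above control, ranked by the interval bound nearest to 0, were Ccl21a, Serpina3n, Ccl2, Cd74, H2-Eb1, H2-Aa, H2-Ab1, Cd83, Tagln, Cd52, Il1b and Lsp1. Serpina3n, an acute phase protease inhibitor, was at 12.6 CPM (control) and 98.2 CPM (Dox), a log2 difference of 2.96 (2.13 to 3.88). It was detected in 4.80% and 34.9% of the endothelial cells and its level was higher in all other cells, at 60.2 and 509 CPM, 3.08. A2m, another protease inhibitor, which is outside these 12, was at 32.8 and 76.7 CPM, 1.23 (0.59 to 1.87), beside 80.2 and 319 CPM in all other cells. Serpina3n was also in 18.4% and 44.7% of Dcn-high cells, and the part of free RNA in these values was not tested.

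Cd74, H2-Eb1, H2-Aa and H2-Ab1 belong to MHC class II antigen presentation, Cd83, Cd52, Il1b and Lsp1 are known from leukocytes, Ccl2 is a chemokine that draws monocytes and Tagln is a smooth muscle gene. Cd74 was at 470 and 1839 CPM, 1.97 (1.82 to 2.11), but 440 of 560 control UMIs were in 1 cell, and 614, 342 and 205 of 1199 Dox UMIs were in 3 cells. The 7 MHC class II genes together had 989 UMIs in control, 757 of them in 1 cell, and 2051 in Dox, of which 991, 590 and 387 were in 3 cells. The control cell had 34 Plvap UMIs, 17 of the myeloid gene Tyrobp and 0 each of Cdh5 and Pecam1. The Dox cells with 205, 342 and 614 Cd74 UMIs had 36, 20 and 33 of Plvap and 4, 10 and 13 of Tyrobp. They had 3, 1 and 1 of Cdh5 and 2, 3 and 1 of Pecam1. Each of the 4 cells also had 1 to 4 UMIs of the leukocyte gene Ptprc. Without the cells with 20 or more Cd74 UMIs or any Ccl21a, an alternative chosen after seeing the data that left out 1 control and 4 Dox cells, the ratio of Cd74 was -0.77 and that of H2-Aa -0.15, and that of Lrg1 was 0.86. Ccl2 had 66 of 131 Dox UMIs in 1 cell, and Tagln 52.7% of its Dox UMIs in 1 cell.

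The 12 genes furthest below control were Hamp, Tyrp1, Gjb2, Pmel, Cited1, Mlana, S100b, Dct, Gpnmb, Syt4, Slc24a5 and Slc45a2. Hamp, the hepcidin gene, had 65 UMIs in 2 control cells and 0 in Dox, and Tyrp1, Pmel, Mlana, Dct, Slc24a5 and Slc45a2 are pigment cell genes. Dct, a melanin synthesis enzyme, was at 1583 and 589 CPM, a log2 difference of -1.43 (-1.59 to -1.27), and was detected in 92.3% and 63.6% of endothelial cells, close to the 92.3% and 65.2% of Dcn-high cells. Pmel, the fibril protein of melanosomes, was at 892 and 219 CPM, -2.02 (-2.29 to -1.77), beside -1.72 in all other cells. The 7 melanocyte markers had a median of -1.97 in endothelial cells and -1.40 in all other cells. RPE markers went the other way, all 7 with enough UMIs being higher in Dox with a median of 0.42 in endothelial cells and 0.43 in all other cells, such as the retinaldehyde-binding protein gene Rlbp1 at 149.5 and 218 CPM. Over the 70 genes at least 2-fold lower, 63 were on the same side in all other cells, and of the 22 genes at least 2-fold higher, 6 were, while 13 of these 22 had 50% or more of their UMIs of a library in 1 cell. The part that the differing make-up of the other cells had in these counts was not tested.

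**Figure D4:**
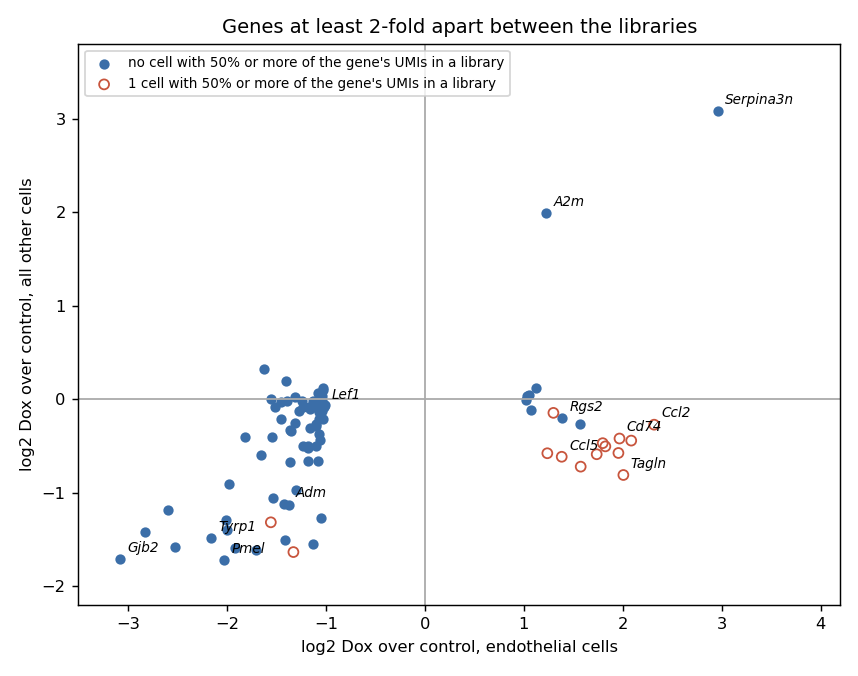
Log2 ratio of Dox over control in all other cells (vertical) against that in endothelial cells (horizontal) for the genes at least 2-fold apart in endothelial cells, with Ccl21a and Hamp not drawn because they had 0 UMIs in a library. Open circles, genes with 50% or more of the UMIs of a library in 1 cell, gather at the lower right, where Cd74 lies at 1.97 and -0.42, and Serpina3n lies at the upper right at 2.96 and 3.08.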

How the data were processed

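Single cells of the RPE, choroid and sclera were captured with a 10x 5′ kit, and the authors made the deposited UMI counts with Cell Ranger (the study's methods name more than 1 version), aligned to mm10 and given per gene and cell, 1 matrix for control and 1 for Dox. Barcodes with over 500 UMIs, 200 to 6000 genes and a mitochondrial share under 0.2 were kept, which left 20189 of 20381 in control and 15438 of 15649 in Dox, and no doublet caller was run. Endothelial cells were taken by the rule that opens the report. The rule, the gene lists and the classes were chosen with earlier results of these data known. UMIs were summed over the endothelial cells of each library and divided by their total to give CPM. Exact Poisson intervals were given for CPM, Clopper-Pearson intervals for shares and conditional binomial intervals for ratios, all at 95% and for counting error only, since reads of 1 pooled library per condition allow no test.

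Comparison classes were taken in order from the other cells: Rpe65 at 10 UMIs or more, smooth muscle genes at 10000 CPM or more, Dcn at 2000 CPM or more, Pmel, Mlana and Dct together at 10 UMIs or more, Ptprc detected, and the rest. Genes with at least 50 UMIs were compared between the libraries. Genes of the fixed lists could be named, as could the 20 with the highest ratio to other cells and the 12 furthest above and below control by the interval bound nearest to 0, at 50 CPM or more in a library. The calculation of the intervals was checked on Poisson counts simulated for 5220 genes. There 96.0% of 5020 unchanged genes were covered, and 100% of genes changed by 1 or 2 on the log2 scale had the right direction. Such counts follow the model that the intervals assume and leave out UMIs that gather in single cells. The check therefore cannot tell how well the intervals cover the real counts. Alternatives changed the rule, cell filters, depth per cell (thinned to 2000 UMIs), scaling, gene minimum and fold. The software was pandas 2.3.3, scipy 1.17.1 and numpy 2.4.6 under Python 3.11.15, with figures from matplotlib 3.10.9. Promoter sequences came from a RefSeq table of GRCm38.p6, with the windows of 1 chromosome not used here.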

Additional observations from a re-analysis of the deposited data

How the results depend on the processing

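No paired analysis was possible because each condition had 1 library. Of 5222 comparisons of 327 single genes, 5007 moved by less than the counting interval, 212 moved by more and 3 genes past 2-fold reversed. Of 512 comparisons of list medians 13 moved. The mitochondrial limit of 0.1 and a limit on genes per UMI kept the same 271 control and 129 Dox cells. These filters could not move a ratio. A changed minimum of UMIs per gene alters which genes are compared and not the ratio of a gene. The 5007 therefore include comparisons that could not move, and their number does not measure robustness. The control and Dox shares were 1.01% and 0.667% with at least 20 UMIs of the 6 genes, 1.11% and 0.682% in cells thinned to 2000 UMIs, and 0.381% and 0.680% without cells with markers of other types.

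Genes at least 2-fold higher and lower in Dox numbered 40 and 26 without cells with markers of other types, 14 and 39 in thinned cells, 9 and 21 at 100 UMIs per gene, 143 and 278 at 20 UMIs, and 192 and 312 at 1.5-fold, and 36 were lower without the top 10% of cells by UMIs. At 1.5-fold the same 5220 genes were compared. The other settings changed which genes were compared, so their counts are not shares to set beside 22 and 70 of 5220. At 8-fold over other cells 188 genes remained. Without cells with markers of other types, medians were -0.066 for fenestrae and caveolae, -0.51 for basement membrane, 2.81 for MHC class II, 0.59 for fibroblast and -1.25 for smooth muscle and pericyte markers. Without the top 10% of cells they were 0.089 for basement membrane, -0.14 for MHC class I and 2.42 for MHC class II, and in thinned cells 0.18 for leukocyte adhesion and 0.11 for fibroblast markers. Without the top cell of each gene, MHC class II was at 2.92, melanocyte markers at -2.26 and Ccl5 at -1.45, so that Ccl5 reversed. Without cells rich in Cd74 or Ccl21a, chosen after seeing the data, macrophage markers were at -0.85, and Cd74 (-0.77) and H2-Aa (-0.15) reversed.

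With a cut at 2 UMIs, 12.2% of control cells had both gene sets and 44.2% of Dox cells neither. With a cut at 5 UMIs, both were in 2.21% and 1.55% and neither in 69.7% and 64.3% of control and Dox cells. In thinned cells, control had 8.50% arterial-high, 0.810% both and 72.1% neither, and Dox had 20.7% venous-high, 0% both and 71.1% neither. The cause of these differences was not tested. The depth of 129 Dox cells limits genes under 50 UMIs, and the spread between preparations is unknown.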
